A study of Mus musculus with 13 samples.

Results

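A set of 412 ATAC-seq peaks was described that gained accessibility in mouse microglia under LPS in each of 4 settings. The peaks were chosen by measured values out of 38620 peaks in the deposited table. Counts of each library were divided by the library total, scaled to counts per 1000000 (CPM), averaged over the libraries of a group, and placed on a log2(CPM + 1) scale. A peak was selected where its mean raw count over the 13 libraries was at least 20, it did not lie on X or Y, and all 4 differences between an LPS group and its PBS group were at least 0.8 on that scale. The count and chromosome conditions alone kept 25307 peaks, which serve below as the background and are called the kept peaks. Of these, 22620 met none of the 4 differences, 1072 met 1, 844 met 2, 359 met 3 and 412 met all 4.

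The cells were microglia of male C57BL/6J mice from Envigo, sorted as DAPI-negative, CD11b-high, CD45-intermediate and Ly6C-negative, and each library pooled 40000 cells from each of 2 animals. Mice were injected intraperitoneally at 10 weeks of age and again 5 weeks later, and were killed 3 hours after the later injection, at 15 weeks of age. In between they were gavaged for 5 days with vehicle or with BLZ945 at 169 mg/kg per day, an inhibitor of the receptor CSF1R that empties the brain of microglia and lets new ones repopulate it. PP (2 libraries) had PBS at both times with vehicle, and PBP (2) had PBS at both times with BLZ945. PL (2) and PBL (3) had PBS and then LPS of Escherichia coli at 1 mg/kg, with vehicle and with BLZ945, and LL (2) and LBL (2) had LPS at both times, again with vehicle and with BLZ945. The labels give no share of cells that survived the inhibitor, so PBP, PBL and LBL may hold some original cells. The pools PBL 3_4 and PBL 4_5 both carry animal number 4 in their names, and the labels do not say whether that animal is in both.

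LPS, a component of the outer membrane of Gram-negative bacteria, is sensed by Toll-like receptor 4 (TLR4) on macrophages. The receptor signals through adaptor proteins and kinases to NF-kB, AP-1 and interferon regulatory factors, which bind enhancers and promoters that lineage factors such as PU.1 have already made partly accessible. Inflammatory genes are switched on within hours, together with feedback inhibitors, and the adrenal response to LPS raises glucocorticoids, which act on the same cells through the glucocorticoid receptor. ATAC-seq reads out where a transposase can enter chromatin, so a higher count at a peak is a more open site. In a bulk library, a change of that site in all cells and a change in the share of cells that carry it cannot be told apart.

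Libraries held between 927893 (PP 1_2) and 2772622 (PBL 4_5) counts in peaks. The sorter was the Astrios for the PBS groups and PL, and the XDP for the remaining LPS groups, so among the 4 differences of the rule it was constant in PL against PP only. PL 1_2 was isolated on the day of PBP and PL 3_4 on the day of PP, which was a different day. No XDP group shared its day with another group, so for these groups day and treatment cannot be told apart. The PL pair stood furthest apart, with a chi-square per degree of freedom of 2.05 between its libraries over the kept peaks, against 0.997 to 1.19 for the other pairs of a group. The share of counts in promoter peaks was 53.2% in PL 3_4 and 55.5% to 60.1% in the other libraries. Of the 12 microglia marker genes, 10 had a promoter peak, with a summed level of 493 to 622 CPM in PBS libraries and 390 to 526 CPM in LPS libraries. None of the 8 neutrophil, 8 lymphocyte, 5 astrocyte and 6 neuron markers had one. Promoter peaks were present for 1 of 8 border macrophage markers (7.01 to 9.49 CPM under PBS, 4.55 to 9.05 under LPS), 1 of 6 monocyte markers (18.9 to 29.9 and 24.2 to 41.1), 2 of 6 oligodendrocyte markers (19.4 to 33 and 20.1 to 25.8) and 2 of 7 endothelial and mural markers (57.7 to 71 and 53 to 91.1). Their part in the results was not tested.

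Sequence was available for the promoter windows of RefSeq (GRCm38.p6) only. A whole upstream window, 250 bases that end at a transcription start site, lay inside 11 of the 412 peaks, which held 12 such windows. The 6 printed here are those whose peak is assigned to the same gene, leaving out a RIKEN transcript; the other 6 windows were searched but are not printed. Cd244a and Bcl3 follow from the rule for named genes, and Il18rap, Tgm1, Rcan1 and Jmjd1c were added after their values were seen. They are written 5′ to 3′ on the strand of the gene, with capitals at every match to 9 searched motifs on either strand.
Cd244a, a receptor of the SLAM family, chr1:171558943-171559192, plus strand: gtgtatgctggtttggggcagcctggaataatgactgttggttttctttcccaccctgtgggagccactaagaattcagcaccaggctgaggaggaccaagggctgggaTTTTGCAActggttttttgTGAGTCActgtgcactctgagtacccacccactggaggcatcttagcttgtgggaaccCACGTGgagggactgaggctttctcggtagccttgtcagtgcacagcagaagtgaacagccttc
Il18rap, the accessory chain of the interleukin-18 receptor, chr1:40515112-40515361, plus strand: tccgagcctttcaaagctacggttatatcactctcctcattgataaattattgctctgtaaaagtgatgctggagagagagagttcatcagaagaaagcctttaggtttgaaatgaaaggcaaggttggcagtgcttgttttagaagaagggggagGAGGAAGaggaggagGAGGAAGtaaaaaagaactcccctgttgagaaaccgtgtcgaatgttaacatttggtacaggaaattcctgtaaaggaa
Tgm1, a transglutaminase, chr14:55713493-55713742, minus strand: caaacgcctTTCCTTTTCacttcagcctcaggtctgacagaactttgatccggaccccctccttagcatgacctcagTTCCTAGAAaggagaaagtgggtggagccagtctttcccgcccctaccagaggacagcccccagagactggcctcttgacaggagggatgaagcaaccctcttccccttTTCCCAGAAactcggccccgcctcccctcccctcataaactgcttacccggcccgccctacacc
Rcan1, an inhibitor of the phosphatase calcineurin, chr16:92400079-92400328, minus strand: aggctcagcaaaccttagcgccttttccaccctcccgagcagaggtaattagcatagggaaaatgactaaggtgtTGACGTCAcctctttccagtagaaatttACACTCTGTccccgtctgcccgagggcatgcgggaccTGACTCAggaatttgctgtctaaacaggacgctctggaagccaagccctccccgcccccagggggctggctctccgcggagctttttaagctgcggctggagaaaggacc
Bcl3, a nuclear cofactor of NF-kB, chr7:19822756-19823005, minus strand: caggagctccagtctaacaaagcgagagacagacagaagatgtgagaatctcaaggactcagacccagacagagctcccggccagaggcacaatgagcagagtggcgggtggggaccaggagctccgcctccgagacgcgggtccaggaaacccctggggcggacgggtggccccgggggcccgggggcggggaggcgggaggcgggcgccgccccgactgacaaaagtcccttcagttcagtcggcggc
Jmjd1c, a member of a histone demethylase family, chr10:67126838-67127087, plus strand: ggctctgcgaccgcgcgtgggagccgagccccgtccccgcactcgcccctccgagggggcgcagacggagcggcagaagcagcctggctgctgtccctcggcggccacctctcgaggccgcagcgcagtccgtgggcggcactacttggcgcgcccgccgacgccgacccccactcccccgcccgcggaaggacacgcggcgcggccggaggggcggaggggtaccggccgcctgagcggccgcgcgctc
The capitals in Cd244a mark C/EBP (TTGCNNAA), AP-1 (TGANTCA) and E-box (CACGTG) matches. Il18rap has 2 matches to the PU.1 core (GAGGAAG), 94 and 79 bases before its start site. Tgm1 has 1 match to the element of interferon regulatory factors, IRF (GAAANNGAA) and 2 to the STAT element GAS (TTCNNNGAA). Rcan1 has 1 match each to the cyclic AMP element CRE (TGACGTCA), to the glucocorticoid element (ACANNNTGT) and to AP-1. The windows of Bcl3 and Jmjd1c held no match, which says only that these letters are not in those 250 bases.

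Over the 12 windows inside selected peaks, PU.1 and GAS matches were found in 4 each, against 11.5% and 5.21% of the 7893 windows inside other kept peaks. NF-kB, AP-1 and E-box matches were found in 2 each, against 9.57%, 3.28% and 9.93%. IRF, C/EBP, glucocorticoid element and CRE matches were found in 1 each, against 5.07%, 6.23%, 2.62% and 3.66%. Of all 32817 promoter windows in the table, 10.6% held the PU.1 letters, 7.01% GAS, 7.25% NF-kB, 6.75% AP-1, 6.02% E-box, 7.12% IRF, 9.57% C/EBP, 5.84% the glucocorticoid element and 1.55% CRE. None of the 20 matches overlapped a match to another motif. A match is a run of letters and not a measured binding site, and 12 windows are too few to rank the motifs. The windows of Gm26740 and C920009B18Rik overlap in 1 peak and share 1 PU.1 match, so the 20 matches are 19 distinct sites, and the PU.1 letters lie in 3 of the 11 peaks.

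The 6 peaks that hold these windows were all more open in the LPS groups. At the Cd244a promoter the PP libraries measured 24.8 and 16.2 CPM and the PBP libraries 21.5 and 19.4. PL measured 60.3 and 54.8 CPM, PBL 76.2, 71.4 and 53.2, LL 46.2 and 51.5, and LBL 62 and 65.7. The lowest LPS library thus lay above the highest PBS library, and the group means were 2.39 (LL over PP) to 3.28 (PBL over PBP) times higher. At the Rcan1 promoter PBS libraries measured 24.3 to 35 CPM, with a median of 28.3, and LPS libraries 58.2 to 82.3, with a median of 68.3. The Jmjd1c promoter measured 23 to 43.9 CPM under PBS and 66 to 82.2 under LPS, and the Tgm1 promoter 14 to 22.7 and 37 to 45.1, with no overlap in either. The Il18rap promoter, at 8.62 and 8.08 CPM in PP, 1.51 and 4.94 in PBP and 11.2 to 19.6 under LPS, is among the 3 peaks nearest to the threshold.

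The values that chose the peaks are given as a description. Over the 412 peaks the median level was 12.4 CPM in PP and 11.5 in PBP, below the kept peaks (26.3 and 26.1 CPM). It was 30.3 CPM in PL, 30.3 in PBL, 29.7 in LL and 31.1 in LBL, close to the kept peaks at 26.5 to 27.3 CPM. The selected sites were thus weakly open under PBS and of common height under LPS. Together they took 0.561% to 0.597% of the counts of a PBS library and 1.33% (PL 1_2) to 1.61% (PL 3_4) of those of an LPS library.

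**Figure D1:**
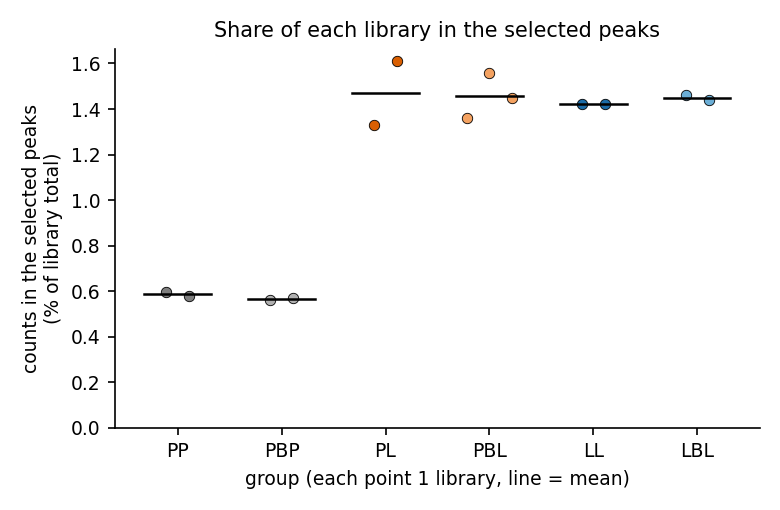
Percent of each library's counts that fell in the 412 selected peaks, by group, with 1 point per library and a line at the group mean. The 4 PBS libraries sit between 0.561% and 0.597% and the 9 LPS libraries between 1.33% and 1.61%, a gap that follows from how the peaks were chosen.

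The 4 differences had similar sizes. The median on the log2(CPM + 1) scale was 1.22 for PL minus PP, 1.28 for PBL minus PBP, 1.14 for LL minus PP and 1.27 for LBL minus PBP, while the kept peaks lay between -0.0173 and 0.00726. PL and LL are set against the same PP libraries, and PBL and LBL against the same PBP libraries. In 398 of the 412 peaks (96.6%) all 9 LPS libraries lay above all 4 PBS libraries, which held for 5.98% of the kept peaks. The median gap between the lowest LPS and the highest PBS library was 0.561 on the log2(CPM + 1) scale, and 45 peaks had a gap of at least 1. Among the LPS groups the highest mean was in PL for 111 peaks, in PBL for 119, in LL for 72 and in LBL for 110, so no single LPS group led the set. The range between libraries of 1 group had a median of 0.169 (LL) to 0.348 (PBP) on the same scale.

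The choice was repeated with part of the libraries and read in the others. The 1_2 libraries alone chose 291 peaks, of which 213 are in the set. In the libraries not used, the median difference of these 291 was 1.3 for PL minus PP, 1.28 for PBL minus PBP, 1.06 for LL minus PP and 1.19 for LBL minus PBP. The smallest of the 4 differences had a median of 0.808 there, and 149 of the 291 (51.2%) again met all 4, against 1.76% of the kept peaks. The 3_4 libraries chose 487 peaks, 302 of them in the set, and in the other libraries their median smallest difference was 0.64, with 35.9% meeting all 4 against 1.37% of kept peaks. Those other libraries include PBL 4_5, which may share an animal with PBL 3_4. Leaving out each of the 13 libraries in turn, 172 of the 412 peaks stayed under the rule every time. Near its threshold, membership is thus a matter of single libraries.

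The peak with the largest smallest difference lay at chr16:93246704-93247456, between genes and 105733 bp from the nearest start site, that of the RIKEN transcript 1810053B23Rik. It measured 11.3 and 9.09 CPM in PP, 6.65 and 6.83 in PBP, 59.1 and 62.3 in PL, 49.9, 57.3 and 55.9 in PBL, 74 and 65.7 in LL, and 63.6 and 62.2 in LBL. No LPS library came near a PBS library, and the 4 ratios of group means ran from 5.95 (PL over PP) to 9.33 (LBL over PBP). Another 2 of the 7 kept peaks assigned to this transcript were also selected, up to 210811 bp away.

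The next was in intron 1 of Dab2, an adaptor protein of endocytosis, 10457 bp upstream of the nearest start site (chr15:6411323-6411783). It measured 1.62 and 3.03 CPM in PP, 3.02 and 1.9 in PBP, and 12.3 to 25.8 in the LPS libraries. PP held 4.5 counts and PBP 7.5 counts in all at this site, so its differences of 2.22 to 2.72 on the log2(CPM + 1) scale rest on almost closed chromatin under PBS. At the Map3k8 promoter on chromosome 18, which serves the kinase that links TLR4 to ERK signalling, PBS libraries measured 20.2 to 26 CPM and LPS libraries 99.4 to 126 CPM. That was the highest level among the named peaks, and it varied little between the 4 LPS groups, whose means were 4.56 (PBL over PBP) to 5.45 (PL over PP) times those under PBS.

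The other peaks among the 12 with the largest smallest difference were mostly far from start sites. A peak 96986 bp from Mir680-3 had differences of 1.93 to 2.22, and one 83954 bp from Klf9, a Krüppel-like factor known to respond to glucocorticoids, of 1.88 to 2.46. The Klf9 peak measured 3.03 and 3.77 CPM in PP, 2.12 and 4.94 in PBP, 14.2 to 19 in PL and PBL, and 19.1 to 25.8 in LL and LBL. A peak 12591 bp from Stat3, the transcription factor downstream of interleukin-6 and interleukin-10, measured 4.18 to 8.62 CPM under PBS and 23.6 to 37.5 under LPS. A peak 17874 bp from Gcnt2, a glycosyltransferase, measured 2.02 to 5.39 and 15.9 to 23.8 CPM. Other sites were 309032 bp from Gm17746 (smallest difference 1.84), in intron 2 of Zbtb16 (1.83), in the 3′ UTR class near Map3k8 (1.82), 23392 bp from Pfkfb3 (1.78) and 77217 bp from Myo1e, a class I myosin (1.77). In each of the 12 the LPS and PBS libraries were fully separated.

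**Figure D2:**
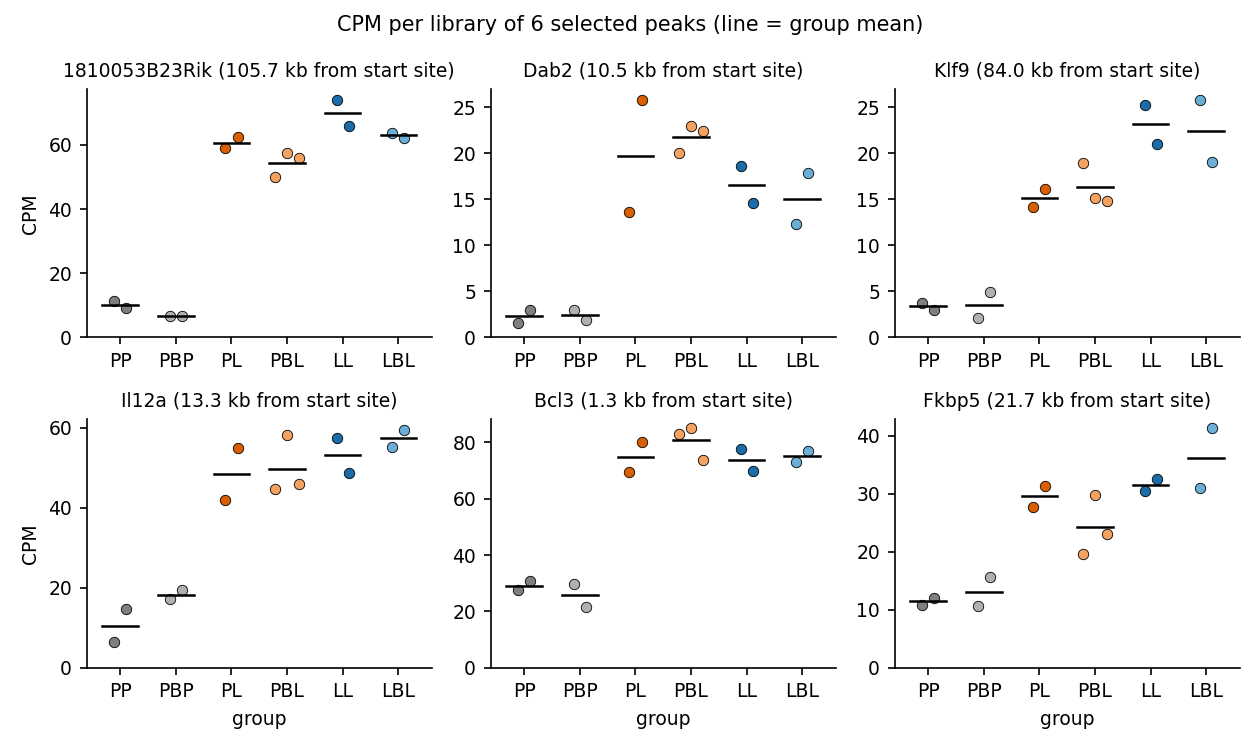
CPM per library at 6 selected peaks, each named by its nearest start site, with 1 point per library and a line at the group mean. In all 6 panels every LPS library (PL, PBL, LL, LBL) lies above every PBS library (PP, PBP), from near-closed sites such as Dab2 (1.62 to 3.03 CPM under PBS) to the Bcl3 intron (21.6 to 30.8 CPM under PBS).

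Promoters were scarce in the set. Of the 412 peaks, 44 (10.7%, 95% Wilson interval 8.05 to 14%) were promoter peaks, against 46.6% of the kept peaks. Introns held 196 (47.6%, 42.8 to 52.4%) against 26.1%, and distal intergenic sequence held 140 (34%, 29.6 to 38.7%) against 20.3%. Exons held 24, the 3′ UTR class 6 and the 5′ UTR class 2. The intervals cover counting error only, and neighbouring peaks are not independent. Put the other way, 0.373% of kept promoter peaks were selected, 2.97% of intronic and 2.72% of distal intergenic ones.

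**Figure D3:**
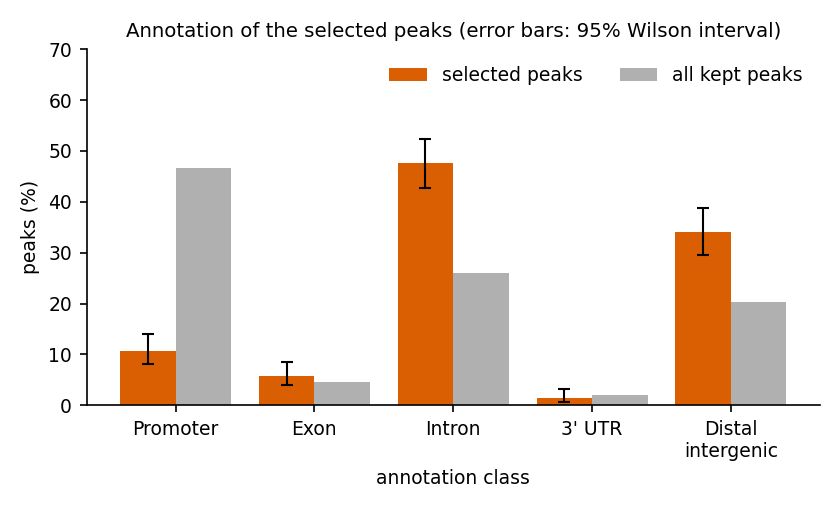
Percent of peaks in each annotation class for the 412 selected peaks (orange, error bars are 95% Wilson intervals) and for all 25307 kept peaks (grey). Promoters make up 10.7% of the selected and 46.6% of the kept peaks, introns 47.6% and 26.1%, and distal intergenic sites 34% and 20.3%.

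The level of the selected promoters is given as a description. The rule used these values, so a level lower in PP than in PL follows from the choice. The median of the selected promoters was 16.7 CPM in PP, against 41.8 over kept promoter peaks, and 38.8 CPM in PL, against 37.9. Their width had a median of 520 bp against 713. The 6 promoter peaks with the largest smallest difference belonged to Map3k8, Epb41l4b, Cetn4, Tmem63a, Cd244a and E230013L22Rik. At Epb41l4b, a FERM-domain protein, PBS libraries measured 6.96 to 13.5 CPM and LPS libraries 33 to 58. Cetn4, a centrin, measured 12.5 to 19.4 and 31.6 to 64.7 CPM, and its PL libraries (31.6 and 64.7) were the lowest and the highest of the 9. Tmem63a, an ion channel, measured 16.2 to 30.7 and 51 to 83 CPM, and the lncRNA E230013L22Rik 14.5 to 19.7 and 36.5 to 58 CPM.

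Intronic and intergenic members were about as wide as other peaks of their class, with medians of 477 against 465 bp and 551 against 493 bp. The median distance from any selected peak to the nearest start site was 14350 bp, against 1771 bp over the kept peaks, and outside promoters alone it was 17613 against 12728 bp. Within 10 kb of a start site lay 39.3% of the selected and 69.2% of the kept peaks, and within 50 kb 79.1% and 91.9%. The share of kept peaks that were selected ran from 0.821% on chromosome 11 to 2.68% on chromosome 18.

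The selected peaks lay near each other. Another selected peak was found within 50 kb of 113 of the 412 (27.4%), while 5.97% of the other kept peaks had a selected peak that close. Within 5 kb the shares were 8.98% and 0.968%. In 10 places at least 3 selected peaks formed a run with less than 50 kb between neighbours, and these runs held 31 peaks. The shortest run was at Rbpj, the DNA-binding factor of Notch signalling, where 3 peaks lay within 4.42 kb (chr5:53450789-53455211) and no other kept peak lay between them. At Bcl3 the 3 selected peaks were likewise all the kept peaks of a 6.76 kb stretch, chr7:19816263-19823025. The run near Map3k8 held 4 of the 5 kept peaks in 33.8 kb. The others were at Aig1, between Txnrd1 and Chst11, at Gcnt2, C030005K06Rik, 4930554I06Rik and Cpeb2, and between the receptor genes Il4ra and Il21r, where 3 of 5 kept peaks in 34.7 kb were selected.

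By nearest start site the 412 peaks were assigned to 340 genes, and 14 genes had 3 or more. Cpeb2, a regulator of mRNA translation, had the most, 5 of its 14 kept peaks, 47255 to 184140 bp from its start. Map3k8 and Gm17746 had 4 each. Those with 3 were Aig1, Bcl3, Gcnt2, Rbpj, the histone deacetylase Hdac4, the Wnt pathway factor Tcf7l2, the GATA-type repressor Trps1, and the transcripts 1700006H21Rik, 1810053B23Rik, 4930554I06Rik and C030005K06Rik. At Aig1 3 of 4 kept peaks were selected, and at Rbpj 3 of 16. At Tcf7l2 the 3 peaks had smallest differences of 1.24 to 1.7, all well above the threshold.

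Genes of known LPS pathways were counted where a selected peak had its nearest start site within 50 kb. Over all genes with a kept peak in that range the share was 280 of 11609 (2.41%). A gene with many kept peaks has more chances of one, so shares of peaks are given too. Of the kept peaks in that range, 1.4% were selected over all genes. The share was 1.15% for AP-1, 1.32% for homeostatic and 0% for interferon and antigen presentation genes. It was 5.36% for cytokine, 6% for NF-kB, 4.23% for Toll-like receptor and 4.76% for negative regulator genes. For disease-associated, glycolysis and glucocorticoid genes it was 3.03%, 2.7% and 6.9%. Lists of this kind were drawn up with earlier results of these data known, and the counts are a description. Among inflammatory cytokines and chemokines 3 of 19 had one, namely Il6, Il12a and Il12b. The site near Il12a, which encodes a subunit of interleukin-12, was 13257 bp from the start site and measured 6.47 and 14.6 CPM in PP, 17.2 and 19.4 in PBP and 41.9 to 59.4 under LPS. The site 18823 bp from Il12b, the other subunit of that cytokine, measured 8.35 to 13.9 CPM under PBS and 16 to 31.1 under LPS. The site 26433 bp from Il6, a cytokine of the acute phase, measured 5.44 to 14.5 and 18.6 to 30.6 CPM.

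Of the genes between receptor and nucleus, 2 of 25 genes of Toll-like receptor signalling had a selected peak. These were Map3k8 and, 48512 bp from the peak, Traf6, the ubiquitin ligase below MyD88, at 27.8 to 32.3 CPM under PBS and 54.1 to 80.9 under LPS. Among 18 NF-kB subunits and feedback genes only Bcl3 had any. Its intronic peak measured 21.6 to 30.8 CPM under PBS and 69.4 to 85 under LPS, and its promoter peaks 8.35 to 14.5 and 23.6 to 28.4, and 18.6 to 28.3 and 47.9 to 59.1. Among 22 AP-1 and immediate early genes 1, Fosl2, a subunit of AP-1, had a selected peak, 2356 bp from its start, at 12.2 to 14.6 and 33.5 to 51.2 CPM. No interferon-stimulated gene of 23 and no gene of antigen presentation or costimulation of 16 had one.

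Feedback and hormone genes were represented as well. Among negative regulators of LPS signalling 3 of 23 had a selected peak: Il4ra, the receptor chain shared by interleukin-4 and interleukin-13, with 2 intronic sites; Dusp1, a phosphatase of MAP kinases; and Sbno2, a corepressor in interleukin-10 signalling. The Dusp1 site measured 4.54 to 5.93 CPM under PBS and 8.4 to 17.7 under LPS, and the Sbno2 site 24.2 to 39.9 and 54.3 to 74.6 CPM. In the glucocorticoid list 3 of 14 had one, Dusp1 again, Nr3c1 and Fkbp5. The 2 sites near Nr3c1, the glucocorticoid receptor, lay 40880 and 41372 bp from its start site. The site of Fkbp5, a cochaperone of that receptor, lay 21725 bp away and measured 10.8 and 12.1 CPM in PP, 10.6 and 15.6 in PBP, and 19.7 to 41.3 under LPS. Klf9, Zbtb16 and Errfi1 are on this list too, and their selected peaks lay beyond 50 kb. The same held for genes of other lists, such as Runx1 (homeostatic microglia genes, 74412 bp), Slc7a11 (glycolysis, HIF and mTOR genes, 122106 bp) and Vcan (monocyte markers, 146509 bp).

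Of glycolysis, HIF and mTOR genes 2 of 21 had a selected peak. Pfkfb3, the enzyme that makes the activator of phosphofructokinase, measured 3.8 to 9.09 CPM under PBS and 23.2 to 41.1 under LPS, and Slc2a1, a glucose transporter, 20 to 23.2 and 43.9 to 73 CPM. Among disease-associated or primed microglia genes 2 of 23 had one, the lysosomal proteases Ctsb (9.11 to 19.7 CPM under PBS and 28.5 to 48.9 under LPS) and Ctsl (4.56 to 10.8 and 15.8 to 27.9). Among homeostatic microglia genes 2 of 27 had one, the transcription factor genes Sall3 and Mef2c, and of the 10 microglia markers with a kept peak none had one. Markers of other cell types gave F13a1, 1 of 4 border macrophage markers, with a site 6261 bp away at 18.3 to 24.3 and 38.1 to 60.7 CPM, and Flt1, 1 of 4 endothelial markers, at 9.49 to 14.5 and 22.6 to 38.1 CPM. F13a1 and Flt1 had no promoter peak in the table, and the part of such cells in the set was not tested.

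Many classical LPS target genes had no selected peak. Of a fixed set of 21 genes, 5 (Il12b, Il4ra, Map3k8, Bcl3 and Fosl2) had one and 16 did not, 15 of which had other kept peaks. This set was drawn up with earlier results of these data known, so the count is a description. It was taken by nearest start site at any distance. Over all genes with a kept peak within 50 kb, 280 of 11609 (2.41%) had a selected peak in that range. The nearest to the threshold was an exonic peak 1109 bp from the start site of Tnf, with differences of 0.699 (PL minus PP), 1.22 (PBL minus PBP), 0.606 (LL minus PP) and 0.896 (LBL minus PBP). The best peaks of Spp1 and Socs3 had smallest differences of 0.517 and 0.514, that of Nfkbia 0.364 and that of Il1b 0.159. Just inside the threshold were peaks near Xylt1 (smallest difference 0.801), Il18rap and Gm17746 (both 0.8), and just outside peaks near Lrrc8c and Spef1l (both 0.799) and Slfn2 (0.798).

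The promoters of the genes next to selected peaks were measured apart from the set. The 368 selected peaks outside promoters had 310 nearest genes, 229 of which had a tested promoter peak that was not itself selected, using the one closest to the start site. With edgeR's quasi-likelihood test and Benjamini-Hochberg adjustment over 37516 tested peaks, 13 of the 229 were called higher and 5 lower in PL vs PP, where 1.96% and 4.65% of the 13762 unselected promoter peaks were. In PBL vs PBP 18 were called higher and 7 lower (background 2.69% and 1.5%), in LL vs PP 16 higher and 0 lower (1.45% and 2.94%) and in LBL vs PBP 9 higher and 1 lower (0.886% and 0.756%). These are the contrasts that chose the neighbouring peaks, so the counts are given as a description. The median log2 fold change of the 229 was 0.01, 0.05, 0.08 and 0.03 in the same order, beside -0.10, -0.01, -0.08 and -0.07 over all unselected promoter peaks. Most of these promoters, 184 of 229, were called in none of the 4 comparisons, and 2 were called higher in all 4. The same shares over all unselected promoter peaks were not computed, so these counts cannot be set against other promoters. The number called higher changed with 1 library left out, in each of the 4 comparisons.

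Those 2 were Arhgap24 and another promoter peak of Map3k8. Arhgap24 encodes a GTPase-activating protein of Rac, and its selected peak lay 80765 bp from the start site. Its promoter measured 26.4 ± 6.16 CPM (SD, n = 2) in PP, 31.1 ± 5.26 in PBP, 48.3 ± 5.71 in PL, 50.6 ± 2.22 (n = 3) in PBL, 47 ± 7.25 in LL and 48.9 ± 10.2 in LBL. The promoter of Slc7a11, the cystine transporter of the glutathione pathway, was called higher in 3 comparisons, at 19.6 ± 0.53 CPM in PP and 46.9 ± 7.8 in PL. So was that of Trem1, a receptor that amplifies TLR signals, from 1.93 ± 1.12 CPM in PBP to 11.2 ± 1.93 in PBL, a low level throughout.

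The comparison of LL with PL asked whether a second LPS challenge opened these sites differently from a first one without depletion, a difference that the rule did not use. Because the rule asks both groups to lie at least 0.8 above the same PP libraries, it leaves out sites that lost most of their response. Of the 412 peaks 1 was called higher and none lower, where the calls over all tested peaks were 0.0133% higher and 0.0506% lower. DESeq2 and limma called none of the 412, where they called 0% and 0.0107% of all tested peaks. At an unadjusted p under 0.05 edgeR found 30 of the 412 (7.28%), against 7.32% of the kept peaks. The median log2 fold change was -0.04, against 0.02 over the kept peaks, with 90% of the peaks between -0.41 and 0.30. It was -0.18 without PL 1_2 and 0.09 without PL 3_4, so its sign depends on which PL library is used, and without PL 1_2 1 peak was called higher and 9 lower. Calls rose across the table in that fit as well, to 0.803% of all tested peaks against 2.43% of the 412. The sorter differed between the 2 groups.

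The 1 called peak lay in intron 2 of Zbtb16 at chr9:48744940-48745377, 90568 bp from the start site. Zbtb16 encodes a zinc finger transcription factor that is a known glucocorticoid target. PL measured 14.8 and 16.4 CPM and LL 32 and 36.1, both LL libraries above both PL libraries, a 2.21-fold difference (log2 1.15, SE 0.23, adjusted p = 0.0147 by edgeR). Over the alternatives the adjusted p ran from 0.00399 to 1, and the call was lost by DESeq2, by limma and without LL 1_2, LL 3_4 or PL 3_4. In PP this site held 3.5 counts in all.

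The comparison of LBL with PBL asked the same after depletion and repopulation, within 1 sorter. Of the 412 peaks 7 were called higher (1.7%) and 9 lower (2.18%), where 0.973% of all tested peaks were higher and 0.928% lower. At an unadjusted p under 0.05 there were 85 (20.6%), against 14.1% of the kept peaks. The median log2 fold change was -0.05, against -0.01 over the kept peaks, with 90% of the peaks between -0.52 and 0.50, and it was 0.01 without PBL 3_4. The number of calls was 16 without PBL 1_2, 7 without PBL 4_5 and 8 without PBL 3_4, and none was called by DESeq2. Over all tested peaks the calls were then 1.59%, 0.892% and 1.06%, and 0.04% by DESeq2. Leaving out LBL 1_2 or LBL 3_4 leaves 1 library in that group. Fewer peaks were called in those fits, among the 412 and over all tested peaks. The median log2 fold change was -0.05 without LBL 1_2 and -0.03 without LBL 3_4. In this comparison no called peak had its direction turned by any alternative.

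**Figure D4:**
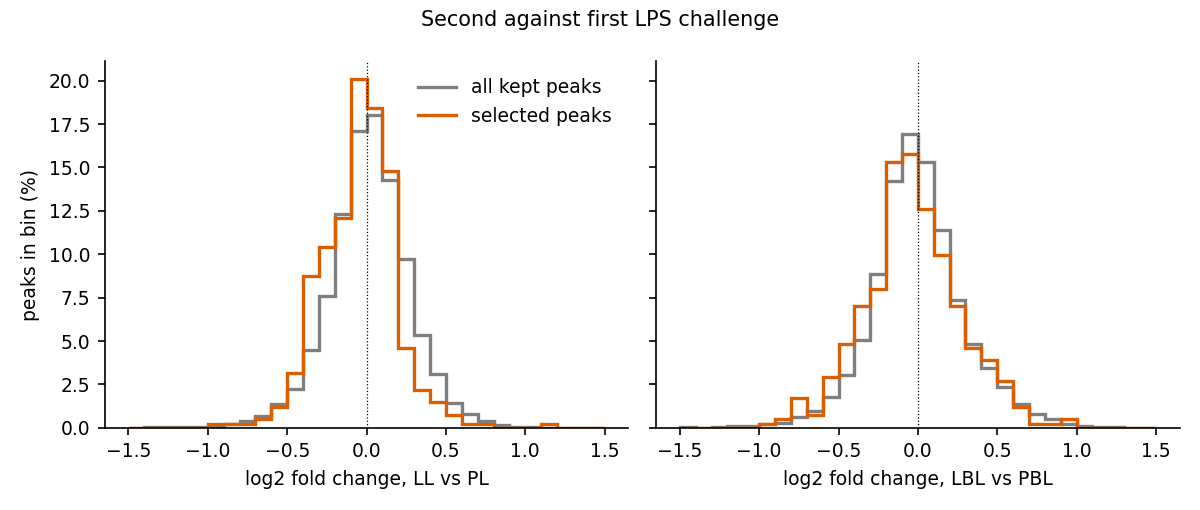
Distribution of edgeR's log2 fold change in LL vs PL (left) and LBL vs PBL (right), as the percent of peaks per bin of 0.1, for the 412 selected peaks (orange) and all kept peaks (grey). Both distributions centre near 0, with medians of -0.04 and -0.05 for the selected peaks and 0.02 and -0.01 for the kept peaks.

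Another site of Zbtb16, in intron 3 and 111964 bp from the start site, had the smallest p among the 7 higher peaks. PBL measured 17.7, 20.2 and 24.5 CPM and LBL 45.2 and 37.8, a 1.9-fold difference (log2 0.93, SE 0.19, adjusted p = 0.00138 by edgeR). The log2 fold changes of the 2 Zbtb16 sites were 1.15 and 0.68 in LL vs PL and 0.66 and 0.93 in LBL vs PBL, each passing the test in 1 arm. The difference between the arms was tested for all peaks and called none. A site 60912 bp from Cebpd, which encodes the transcription factor C/EBP delta, measured 21.1, 25.7 and 33.5 CPM in PBL and 51 and 48.6 in LBL (1.78-fold, adjusted p = 0.00306). Also called higher were sites near Eloc (1.49-fold), Tma16 (1.58), the phospholipid flippase gene Atp8a1 (1.6), 4930554I06Rik (1.95) and the sorting receptor gene Sort1 (1.63).

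Among the 9 lower peaks the smallest p was at a site 11180 bp from Aig1, a lipid hydrolase. PBL measured 55, 78.2 and 64.2 CPM and LBL 36.8 and 39, so the libraries did not overlap, a 1.76-fold difference (log2 -0.82, SE 0.16, adjusted p = 0.000669 by edgeR). The site was 3.3 times as high in LBL as in PBP, where the rule itself required a rise. A site 41449 bp from Pik3cb, a catalytic subunit of PI3 kinase, measured 96.2, 89.8 and 72.9 CPM in PBL and 49.1 and 53.9 in LBL (1.66-fold, adjusted p = 0.00121). Sites near Popdc2 (1.69-fold), Tmem131l (1.7) and the circadian phosphatase gene Noct (1.65) followed. At Noct the non-depleted arm measured 33.4 and 43.8 CPM in PL and 25.1 and 17 in LL, with an adjusted p of 0.0584 for LL vs PL. The remaining 4 were near Prss30, the chondroitin sulfotransferase gene Chst11, the Polycomb cofactor gene Jarid2 and the lamin gene Lmnb1, 1.47- to 1.88-fold lower.

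**Figure D5:**
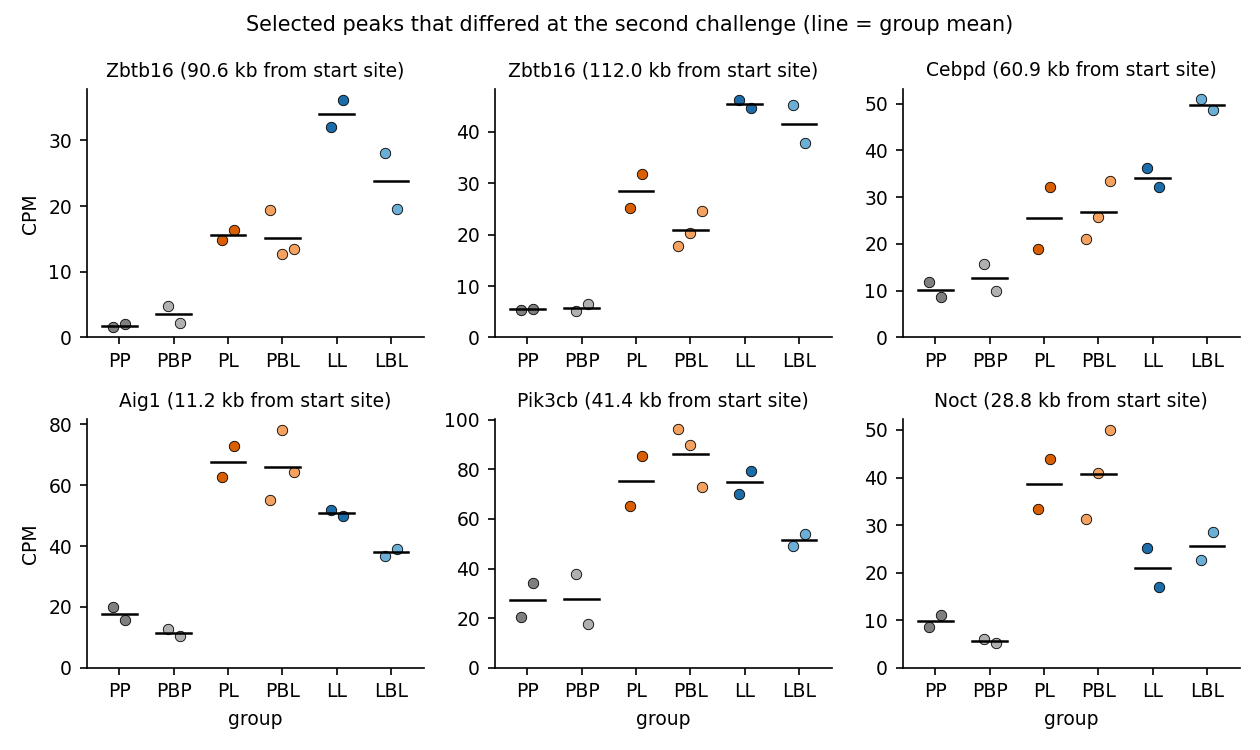
CPM per library at 6 selected peaks called in LL vs PL or LBL vs PBL, with 1 point per library and a line at the group mean. The group means of the 2 Zbtb16 sites and Cebpd are higher after a second challenge (LL, LBL) than after a first (PL, PBL), those of Aig1 and Noct are lower in both arms, and Pik3cb is lower in LBL only, where LL at 70 and 79.4 CPM lies within the PL range of 65.3 to 85.2.

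Whether the second-challenge effect differed between the arms was tested as the difference of LBL vs PBL and LL vs PL. It called 0 of the 412 peaks in either direction, as it did over all tested peaks (0% higher and 0% lower). DESeq2 and limma called 0 as well, both among the 412 and over all tested peaks. At an unadjusted p under 0.05 edgeR found 17 (4.13%, against 6.43% of kept peaks). Without PL 1_2, 3 of the 412 (0.728%) and 0.188% of all tested peaks were called.

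Repopulated and original microglia were compared at rest, at the first and at the second challenge. In PBP vs PP none of the 412 peaks was called, where 0.064% of all tested peaks were higher and 0.096% lower. DESeq2 called 0 and limma 9 (2.18%), against 0.024% and 1.12% of all tested peaks. Unadjusted, 20 (4.85%) passed 0.05 in edgeR, against 10.6% of kept peaks. The median log2 fold change was -0.06 and became 0.22 with isolation day as a term, which called 4 (0.971%), fewer than the 2.17% of all tested peaks. The smallest p values were at a site near Lrpprc, an RNA-binding protein of mitochondria, with 4.31 and 6.56 CPM in PP and 13.6 and 13.3 in PBP (adjusted p = 0.247 by edgeR), and at one near 1810063I02Rik, with 23.7 and 14.1 CPM in PP and 9.68 and 6.46 in PBP (adjusted p = 0.21). In both, the 2 groups did not overlap, and neither difference passed the test. Separation of this kind was common, with PBP above PP in 11.7% of the 412 and below it in 20.9%, against 21.1% and 21.2% of the kept peaks.

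In PBL vs PL 2 of the 412 peaks were called higher and none lower, with 0.0613% and 0.0213% over all tested peaks, and the sorter differed between the groups. The median log2 fold change was 0.00, against 0.02 over the kept peaks. Unadjusted, 40 (9.71%) passed 0.05 against 11% of kept peaks. The median was -0.12 without PL 1_2 and 0.15 without PL 3_4. The 2 were an intronic site 4477 bp from Xylt1, an enzyme of proteoglycan synthesis, and a site 5393 bp from Lmnb1. The Xylt1 site measured 36.6 and 44.1 CPM in PL and 57.8, 66.4 and 68.5 in PBL (1.64-fold, log2 0.71, SE 0.16, adjusted p = 0.0267 by edgeR). The same site measured 38.7 and 43.9 CPM in LL and 60.7 and 72.3 in LBL, a similar gap that did not pass the test in LBL vs LL (adjusted p = 0.0644). DESeq2 and limma called none of the 412 in PBL vs PL, where they called 0% and 0.00533% of all tested peaks. The Xylt1 call held in 12 of 19 alternatives. No peak was called without PBL 3_4 or PBL 4_5, and 2 were called higher and 7 lower without PL 1_2, together 2.18% of the 412 where 2.67% of all tested peaks were called. The Lmnb1 site measured 13 and 15.3 CPM in PL, 26.7, 30.7 and 26 in PBL, 11.7 and 11.8 in LL and 18.7 and 14.6 in LBL, so it stood highest in PBL.

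In LBL vs LL, within 1 sorter, none of the 412 peaks was called by edgeR, DESeq2 or limma. Over all tested peaks DESeq2 called 0.00267% and limma 0.00533%, and edgeR called 0.024% higher and 0.0267% lower. Unadjusted, 44 (10.7%) passed 0.05 against 7.4% of kept peaks. The median log2 fold change was 0.03, with 90% of the peaks between -0.38 and 0.48. The smallest p on the lower side was at a site near Spry4, an inhibitor of ERK signalling, with 28.6 and 20.4 CPM in LL and 13.6 and 10.6 in LBL (adjusted p = 0.12). A p above the threshold with 2 libraries a group does not show that levels were alike.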

How the data were processed

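ATAC-seq libraries of sorted microglia were analysed from the deposited table, which gives for every peak an estimated count in each library, in steps of 0.5 and without normalization, made by the authors with a counting tool not named in the labels. Per the submitters' processing notes, the tools included Bowtie2 2.2.6, MACS2 2.1.1 and ChIPseeker 1.38, with cutadapt 1.9.1, Picard 1.126, SAMtools 1.7, HOMER 4.9.1, bedtools 2.26 and deepTools 3.3.0 also listed, and the builds GRCm38 and mm10, in an order and with settings not given there; how read ends were shifted is not given either. Peak annotation, distances in bp, isolation day and sorter are as deposited, per the file headers and the labels. Library totals in peaks ranged from 927893 to 2772622, so a member at the lowest mean count of 20.1 carries a wide counting error.

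The members and gene lists were chosen with earlier results of these data known. The rule of selection was computed in Python 3.11.15 from unrounded counts. For tests, counts were rounded to whole numbers and fitted in R 4.3.3 with edgeR 4.0.16 (filterByExpr with a minimum count of 10, TMM, robust quasi-likelihood fit of 6 group means on 13 libraries). The filter left 37516 peaks and removed 1104; all 412 members were among those tested. Two-sided p-values were given a Benjamini-Hochberg adjustment across these peaks, with calls under 0.05. The scripts were tested on simulated data. The pools of a group are taken as replicates, and nothing says more of their independence. DESeq2 1.42.0 and limma 3.58.1 (limma-trend, prior count 2), another scaling, no filter, thinning, a replicate block and leaving out each library were alternatives.

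Named members follow a rule: the 12 with the largest smallest difference, the 6 such promoter members, up to 4 per gene list within 50 kb, up to 5 called per direction and comparison by smallest p, the 3 on each side of the threshold, genes nearest to 3 or more, and a fixed set of 21 genes. Called peaks beyond these 5, and the promoters of neighbouring genes, were named after their values were seen. No genome was used here, so motif shares were read in RefSeq promoter windows (GRCm38.p6) only.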

Additional observations from a re-analysis of the deposited data

Results flagged for a closer look

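Peaks on X and Y were outside the rule. Of 468 such peaks with the minimum count, 3 met all 4 differences, and all 3 lay on X. The one near Frmd7, a FERM-domain protein, had a smallest difference of 1.21 on the log2(CPM + 1) scale, at 2.16 to 8.58 CPM in PBS libraries and 11.8 to 20.1 in LPS libraries. An intronic peak of Bcor, a BCL6 corepressor, reached 0.985, at 4.23 to 9.09 and 10 to 26.6 CPM. A peak near Il13ra1, which pairs with the interleukin-4 receptor chain, reached 0.838, at 9.11 to 14.8 and 21.4 to 39.2 CPM. They lie outside the selected set, so no value of a selected peak above rests on them; they were among the peaks tested across the table and so belong to the background shares.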

How the results depend on the processing

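The set held 412 peaks and between 345 and 454 with 1 library left out, but 810 at a threshold of 0.6 and 190 at a threshold of 1; TMM scaling, an offset of 0.5 CPM, a minimum count of 10, thinning and X peaks gave 384 to 486. When the 3_4 libraries chose, the median smallest difference in the others was 0.64, against 0.808 when the 1_2 libraries chose. Counts of called members were fragile, and calls over all tested peaks moved too. In LBL vs PBL these were 1.9% in the main fit, 0.04% with DESeq2, 0.701% with limma and 0.236% after thinning. In LL vs PL they were 0.064%, 0% with DESeq2 and 0.0107% with limma. In PBL vs PL they were 0.0826%, then 0%, 0.00533% and 0.00598% with DESeq2, limma and thinning. In PBP vs PP they were 0.16%, 1.12% with limma and 2.17% with isolation day as a term. For LL vs PL the 1 call became 0 with DESeq2 and limma, and 0 to 10 with 1 library left out. For LBL vs PBL the 16 calls became 0 with DESeq2, 2 with limma, 2 after thinning, and 0 to 16 with 1 library left out. For PBL vs PL the 2 calls became 0 with DESeq2, limma and thinning, and 0 to 9 with 1 library left out. For PBP vs PP the 0 calls became 9 with limma and 4 with isolation day as a term, and the difference between arms gave 0 to 3 calls with 1 library left out. Of the 19 called values, 0 kept their call in every alternative and 0 turned direction.

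Whether the pool numbers pair the libraries is not settled. The correlation of deviations between same-numbered libraries of different groups ran from -0.0174 to 0.162 over 30 pairs. In groups of 2 libraries the deviations mirror each other, so values repeat and the 30 pairs are not independent. Counting error enters the deviations too, so a small correlation cannot exclude a shared effect. With the pool numbers as a replicate block, 2 selected peaks (0.485%) were called in LL vs PL, against 0.131% of all tested peaks. In LBL vs PBL 8 (1.94%) were called, against 1.26%. In PBL vs PL 1 (0.243%) was called, against 0.0693%, and in LBL vs LL 1 (0.243%), against 0.0986%. In PBP vs PP the calls were 0, against 0.285%. A size of 2 or 3 pools a group, and members down to 20.1 counts on average, limit all of these. Motif shares in 300- and 200-base windows at peak centres were not run, since no genome of the files' build was used here.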

Other observations

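A further 359 kept peaks met 3 of the 4 differences. The one missed was LL minus PP in 107, LBL minus PBP in 101, PBL minus PBP in 98 and PL minus PP in 53. The missed difference was small in few of them: its median lay between 0.639 (LL minus PP) and 0.704 (PL minus PP), and it was below 0 in 1 peak for PL minus PP, 1 for PBL minus PBP and 0 for the other differences. The edge of the set is therefore a matter of degree and not a separate class of sites.

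In 14 of the 412 peaks an LPS library lay at or below a PBS library. The widest overlaps were at sites near Spry4 (lowest LPS library 10.6 CPM, highest PBS library 13.5 CPM) and Eepd1 (7.11 and 9.09 CPM). Others of the 14 were near the interleukin-21 receptor gene Il21r (14.9 and 15.1 CPM), Notch2 (10.2 and 11.3 CPM) and App, the amyloid precursor protein gene (8.64 and 9.59 CPM).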
